A study of Mus musculus with 3 samples.

Results

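The genes described here are those of the MHC class II pathway and its transcription factor Ciita. They comprise the peptide-binding chains H2-Aa, H2-Ab1 and H2-Eb1, the peptide exchange factor chains H2-DMa and H2-DMb1, the chains H2-Oa and H2-Ob of its inhibitor, the invariant chain Cd74, the regulator Ciita and the ubiquitin ligase Marchf1. They were listed by name for their known roles, with earlier results of these data known, and found through the annotation of the array platform. All 10 genes were on the array, among 16593 named genes, with 15 probes in all. H2-Ab1 had 4 probes, Cd74 and Marchf1 had 2 each, and the other 7 genes had 1 probe.

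Expression was measured on Illumina MouseRef-8 v2 bead arrays in dendritic cells grown from the bone marrow of DBA mice aged 6 weeks, with 1 array for each of 3 groups. The medium of all 3 cultures held 20 ng/ml GM-CSF and 2 ng/ml interleukin-4 over 8 days. The mDC group, labelled fully mature, then received lipopolysaccharide at 1 µg/ml with type II collagen at 50 µg/ml for 24 h. The tDC group, labelled semi-mature or tolerogenic, received TNF-alpha at 10 ng/ml with the same amount of collagen for 4 h. The imDC group, labelled immature, has no stimulus and no time of harvest in the labels. Stimulus and duration changed together between tDC and mDC, so their parts cannot be told apart. The labels list collagen for tDC and mDC and not for imDC. In comparisons with imDC, the parts of collagen, of TNF-alpha or lipopolysaccharide, and of time cannot be told apart. No genotype beyond the strain, no DBA substrain, no sorting step and no number of mice are given in the labels.

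MHC class II molecules are pairs of an alpha and a beta chain that carry peptides from endocytosed proteins to the cell surface, where CD4+ T cells read them. Newly made pairs bind the invariant chain, which is cut down in endosomes to a fragment that H2-DM exchanges for peptide, and H2-DO restrains H2-DM. Transcription of these genes depends on Ciita, a coactivator that binds no DNA itself but joins RFX, CREB and NF-Y factors on the X and Y boxes of class II promoters. Dendritic cells are known for a high rate of class II synthesis while immature and for a lasting display of loaded molecules once mature. Marchf1 adds ubiquitin to class II molecules, which sends them for degradation.

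The promoters of 5 of the H2 genes are shown because class II promoters are where Ciita is known to act. The letters are from RefSeq, assembly GRCm38.p6 of strain C57BL/6J, and the promoters of the DBA mice were not read. Each run covers 130 to 31 bases before the annotated transcription start, 5′ to 3′ on the strand of the gene. Capitals mark 3 letter patterns, searched on both strands, the Y box core ATTGG, the X2 box core TGACG and an X1 box core that reads AG, any base, AAC, any 2 bases, ATG. The capitals CCAAT in H2-Eb1 are the Y core on the other strand. The same stretch before the 2 starts of H2-DMa held none of these patterns and is not shown. The 5 promoters shown are those of listed H2 genes with ATTGG in this stretch, so its presence in all 5 follows from the choice.
H2-Aa, chr17:34287854-34287953, minus strand: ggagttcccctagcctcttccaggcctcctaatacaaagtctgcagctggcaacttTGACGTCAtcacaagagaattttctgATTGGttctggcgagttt
H2-Eb1, chr17:34305737-34305836, plus strand: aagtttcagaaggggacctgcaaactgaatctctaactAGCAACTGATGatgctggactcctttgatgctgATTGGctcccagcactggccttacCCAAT
H2-DMb1, chr17:34153061-34153160, plus strand: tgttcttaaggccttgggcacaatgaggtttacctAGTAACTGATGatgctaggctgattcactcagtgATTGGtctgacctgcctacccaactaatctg
H2-Ob, chr17:34238775-34238874, plus strand: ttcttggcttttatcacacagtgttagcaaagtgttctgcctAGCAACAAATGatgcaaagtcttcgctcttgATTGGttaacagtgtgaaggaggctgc
H2-Oa, chr17:34092249-34092348, plus strand: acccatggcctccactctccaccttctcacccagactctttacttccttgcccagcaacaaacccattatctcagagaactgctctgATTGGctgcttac

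The ATTGG core lay 43 to 61 bases before the start in all 5 of these promoters. An X1 core lay upstream of it in H2-Eb1 (92 bases before the start), H2-DMb1 (95 bases) and H2-Ob (88 bases). In H2-Aa the TGACG core matched on both strands, overlapping itself as TGACGTCA, from 74 bases before the start. Within 250 bases before the start, 33.8% of the 32536 promoter windows of the table held ATTGG, 17.9% held TGACG, 0.713% held this X1 core and 0.295% held the X1 core together with ATTGG. This X1 pattern was chosen after the sequences were seen. The X1 pattern set earlier, AG, any 2 bases, AC, any base, GATG, matched H2-Eb1 and H2-DMb1 at the same bases and H2-Oa 141 bases before the start, missed H2-Ob, and was held by 0.818% of windows. None of these X patterns matched in the 2 windows of H2-DMa or the 3 of Marchf1, where ATTGG matched once in each of 3 of the 5 windows, 163 to 199 bases before the start. A match describes these letters only.

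**Figure D1:**
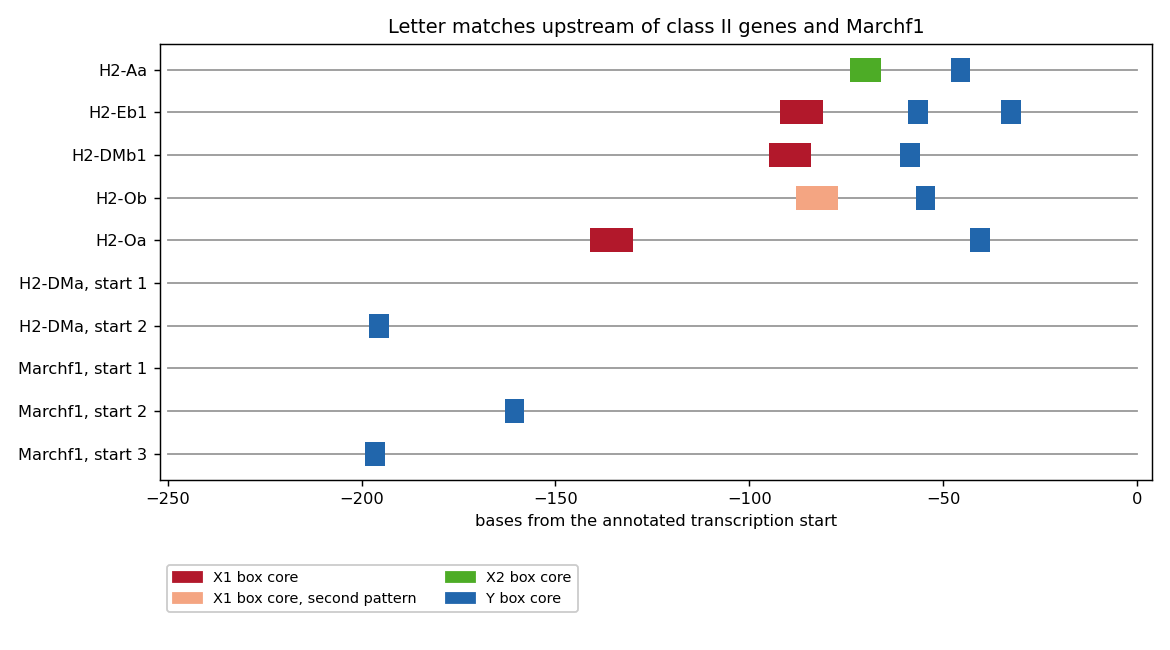
Positions of the letter matches in the 250 bases before each annotated start, as distance in bases from the start (horizontal axis), with 1 line per start. In the upper 4 lines an X1 or X2 core lies to the left of a Y core, 95 to 74 bases before the start against 61 to 48; H2-Oa has its X1 core at 141 bases, and H2-DMa and Marchf1 hold only isolated Y cores.

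Each group had a single array, so no test and no standard error could be computed. Values are background-corrected, quantile-normalized log2 intensities unless stated otherwise, and a probe counted as detected on an array at a detection p under 0.01. Between 10673 and 11006 of 25697 probes were detected per array, and the median signal lay between 124.7 and 131.7 intensity units. The threshold for calling a gene higher or lower was a 2-fold difference. The only measure of error was the disagreement between probes of the same gene. Over 1778 genes with 2 or more probes detected on all arrays, the differences of a pair of probes disagreed by a median of 0.13 in tDC against imDC, 0.15 in mDC against imDC and 0.13 in mDC against tDC on the log2 scale. The 95th percentiles of that disagreement were 0.46, 0.58 and 0.46 in the same order. This measure leaves out the variation between cultures.

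The dendritic cell markers gave a partial match to the labels. The summed linear level of 12 markers was 15108 in mDC, 15838 in tDC and 15771 in imDC. Of these markers, 8 were detected in mDC, 8 in tDC and 9 in imDC, including Zbtb46, Batf3 and Ccr7 on all arrays. Flt3, Clec9a and Xcr1 were detected on none, and Itgax, which encodes CD11c, had a level of 7.98 in mDC, 8.74 in tDC and 9.93 in imDC. Of the 9 dendritic cell markers compared between mDC and imDC, 4 were above 0 and 5 below, with a median of -0.06. Markers of other cell types were present too. The summed linear level of 12 neutrophil markers was 144516 in mDC, 124012 in tDC and 66202 in imDC, with 11 detected on each array. The largest part of this sum in mDC was Lcn2, with signals of 65600 in mDC, 26500 in tDC and 5150 in imDC. The neutrophil markers did not move together. Their median difference was 0.52 in mDC and 0.96 in tDC against imDC but -0.19 in mDC against tDC, where 8 of 11 were below 0, Lcn2 was 2.48-fold higher and Cxcr2 4.51-fold lower. The summed level of 9 macrophage and monocyte markers was 63787, 39712 and 25132 on the mDC, tDC and imDC arrays, with 6, 7 and 8 detected. Its largest part in mDC was Cd14, with signals of 34700 in mDC, 23900 in tDC and 5360 in imDC. In mDC against imDC 3 of the 8 macrophage and monocyte markers compared were higher at 2-fold (Adgre1, Ly6c1 and Cd14). Another 4 were lower (Mrc1 by 47.1-fold, Mertk by 4.98-fold, and C1qb and C1qc as bounds), and the median of the 8 was -0.84. Of all genes, 6.16% were higher and 5.96% lower at 2-fold in that comparison. The summed level of 7 mast cell and basophil markers was 33651, 12579 and 4429, with 7, 6 and 6 detected. Most of this sum in mDC was Hdc, with signals of 26100 in mDC, 7420 in tDC and 1370 in imDC. Hdc was 21.6-fold higher in mDC than in imDC, where all 7 markers were above 0 and the median log2 difference was 1.47. Of 8 B cell markers, 3 were detected in mDC, 3 in tDC and 2 in imDC, and Ms4a1 and Pax5 were detected on none. The summed level of 5 plasmacytoid dendritic cell markers was 4861 in mDC, 2711 in tDC and 2391 in imDC, and that of 7 T and NK cell markers was 414, 417 and 278. Their part in the class II differences given here was not tested. In these bulk samples, fewer cells of a type and less RNA per cell cannot be told apart.

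Ciita was lower in mDC than in imDC, and its level in tDC lay between them. Its signal was 512.9 intensity units in mDC, 753.4 in tDC and 1129.8 in imDC, and it was detected on all arrays. The normalized level was 8.85 in mDC, 9.40 in tDC and 9.94 in imDC, so the immature culture was highest and tDC lay about midway. Ciita was 2.14-fold lower in mDC than in imDC (log2 difference -1.10) and differed by -0.54 in tDC from imDC (1.46-fold, under the threshold). Without background correction and with the authors' processed values, the difference of Ciita between mDC and imDC was just under 2-fold. It was read by 1 probe, which does not separate the transcripts that Ciita is known to start from several promoters.

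The chains of H2-DM, which swaps the invariant chain fragment for peptide, were the only members past 2-fold in tDC against imDC, downward, and both passed it in mDC too. H2-DMa had signals of 1451.1 in mDC, 3289.7 in tDC and 6606.3 in imDC, and levels of 10.49, 11.64 and 12.67 on the same arrays. H2-DMb1 had signals of 1463.9 in mDC, 2368.7 in tDC and 5243.9 in imDC, and levels of 10.50, 11.15 and 12.34. Both genes were lower in each stimulated culture than in the immature one. H2-DMa was 4.53-fold lower in mDC (-2.18) and 2.05-fold lower in tDC (-1.03) than in imDC. H2-DMb1 was 3.57-fold lower in mDC (-1.84) and 2.28-fold lower in tDC (-1.19) than in imDC. Of all genes compared, 1.69% were as far down as H2-DMa in tDC against imDC and 1.01% as far as H2-DMb1, and in mDC against imDC the shares were 0.84% and 1.44%. With median scaling, H2-DMa was 1.96-fold lower in tDC. Of the dendritic cell markers, Itgax was 3.88-fold lower in mDC and 2.29-fold lower in tDC than in imDC. Cd209a, detected only in imDC, was at least 2.25-fold lower in mDC and at least 2.32-fold lower in tDC. Irf8 was 2.18-fold higher in mDC than in imDC, and no other dendritic cell marker passed 2-fold in these comparisons. The part of these markers in the H2-DM values was not tested.

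The peptide-binding chains had a different profile from H2-DM, with levels in tDC close to those in imDC and lower levels in mDC. H2-Ab1, the beta chain of I-A, was read by 4 probes. Its brightest probe had signals of 12897 in mDC, 27198 in tDC and 26448 in imDC, and levels of 13.64, 14.71 and 14.69. On this probe H2-Ab1 was 2.06-fold lower in mDC than in imDC (-1.04), while the difference of tDC from imDC was 0.02. The other 3 probes gave -1.43, -1.59 and -1.55 for mDC against imDC and -0.24, -0.38 and -0.20 for tDC against imDC. All 4 probes thus placed mDC lowest, and they disagreed on the sign of the small tDC difference. With median scaling the brightest probe gave 1.93-fold lower in mDC, and the mean of the 4 probes gave 2.64-fold.

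H2-Aa, the alpha chain of I-A, had signals of 227.4 in mDC, 329.1 in tDC and 383.4 in imDC. Its levels were 7.27, 7.97 and 8.09, so that mDC differed from imDC by -0.82 and tDC from imDC by -0.12, both under 2-fold. H2-Eb1, the beta chain of I-E, had signals of 276.1 in mDC, 466.4 in tDC and 563.5 in imDC. It was 2.13-fold lower in mDC than in imDC (-1.09) and differed by -0.20 in tDC from imDC. Without background correction H2-Eb1 was 1.80-fold lower in mDC. The probes were designed on reference transcripts, and H2 alleles of this strain may bind them unequally, so the order of brightness between these genes carries no information about their amounts.

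Cd74, the invariant chain that guides class II chains to endosomes, was among the brightest genes of the arrays. The probe brighter on average had signals of 32324 in mDC, 49061 in tDC and 47498 in imDC, where the highest signal of any probe was 65567, 64636 and 63750 on the same arrays. Both probes placed mDC lowest. Cd74 differed between mDC and imDC by -0.56 on one probe and -0.80 on the other, and between tDC and imDC by 0.07 and -0.14, so no direction can be given for tDC. Differences this close to the top of the signal range can be understated.

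**Figure D2:**
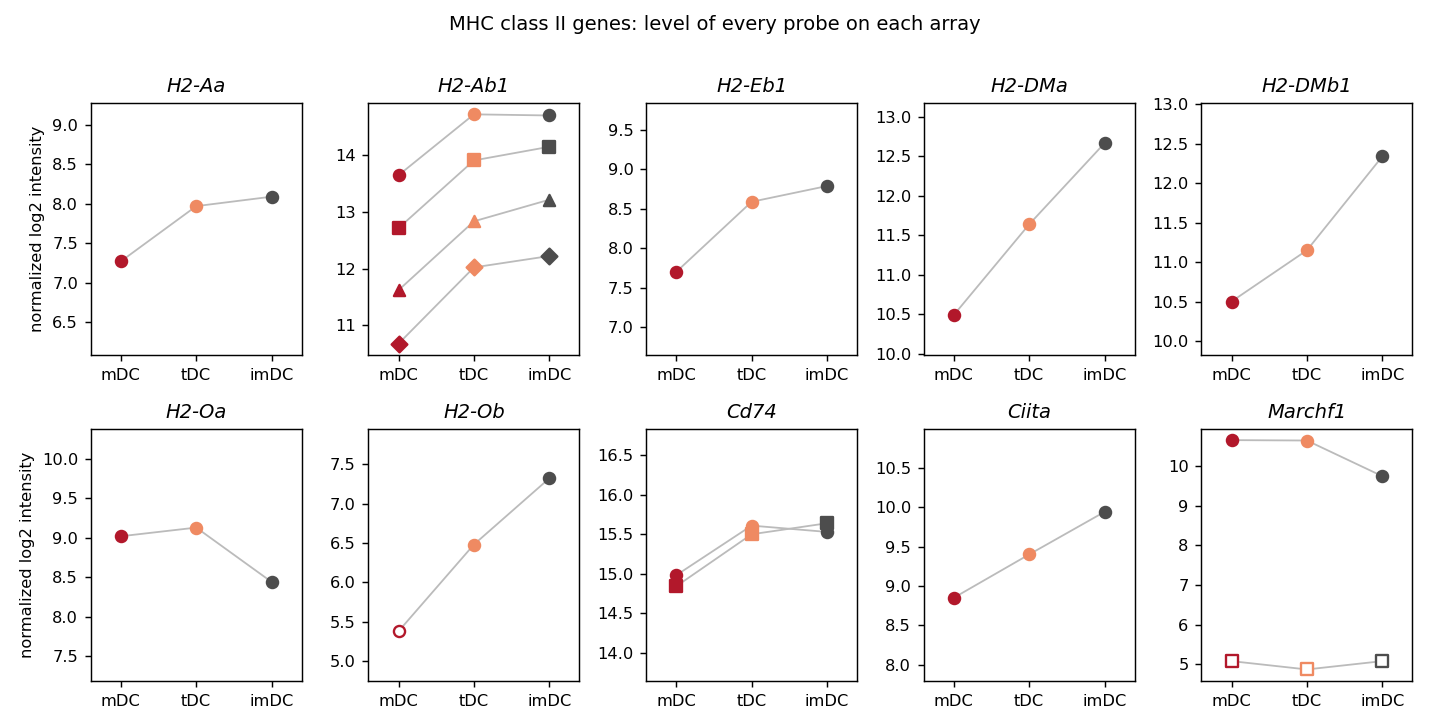
Normalized log2 intensity (vertical axis, with its own range in each panel) of every probe of the 10 genes on the mDC, tDC and imDC arrays; marker shapes separate probes of one gene, filled markers are detected and open ones are not, and lines join the values of a probe. The tDC levels of Ciita, H2-DMa, H2-DMb1 and H2-Ob lie below their imDC levels, past 2-fold only for H2-DMa and H2-DMb1. The 4 probes of H2-Ab1 are lowest in mDC. H2-Oa and the detected probe of Marchf1 lie above their imDC levels in mDC and tDC, each by less than 2-fold.

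The chains of H2-DO, known mostly from B cells, lay on opposite sides of their imDC levels in tDC. H2-Ob, the beta chain, had signals of 120.3 in mDC, 170.5 in tDC and 259.0 in imDC. It was not detected in mDC (detection p 0.0965) and was detected in tDC (0.00376) and imDC. H2-Ob was therefore at least 2.08-fold lower in mDC than in imDC, a bound set against the lowest detected level on the mDC array, and differed by -0.84 in tDC from imDC, under 2-fold. With the authors' processed values the bound for mDC was 1.51-fold. H2-Oa, the alpha chain, had signals of 564.8 in mDC, 638.9 in tDC and 463.3 in imDC, and its levels of 9.02 and 9.13 in mDC and tDC lay above the level of 8.44 in imDC. The differences of H2-Oa from imDC were 0.57 in mDC and 0.69 in tDC, both under 2-fold. The value in mDC is within 0.58, the 95th percentile of the disagreement between probes in that comparison, and gives no direction. Among the B cell markers, whose summed level was 1068 in mDC, 832 in tDC and 576 in imDC, Cd79b was 4.96-fold higher in mDC and 2.70-fold higher in tDC than in imDC. Fcrla, the other B cell marker detected on all arrays, differed from imDC by -0.88 in mDC and 0.02 in tDC. The part of B cell RNA in the H2-Oa values was not tested.

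Marchf1, the ubiquitin ligase that shortens the life of class II molecules, was above its imDC level in both stimulated cultures. Its detected probe had signals of 1634.5 in mDC, 1684.7 in tDC and 998.1 in imDC, and levels of 10.66, 10.65 and 9.75. The level of Marchf1 was 1.89 times that of imDC in mDC and 1.88 times in tDC, just under 2-fold in each case, and mDC and tDC differed by 0.01. The other probe was detected on no array. In mouse dendritic cells Marchf1 is known to fall during maturation, as background from other work.

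Counted over the 10 genes, 2 were lower at 2-fold in tDC than in imDC (H2-DMa and H2-DMb1) and 0 were higher, where 4.9% of 7884 genes passed 2-fold in either direction, 2.02% lower and 2.88% higher. The median difference of the 10 was -0.16, against 0.00 over all genes. In mDC against imDC, 6 of 10 were lower (H2-DMa, H2-DMb1, Ciita, H2-Eb1, H2-Ab1 and, as a bound, H2-Ob) and 0 were higher, where 12.1% of 7973 genes passed 2-fold, 5.96% lower and 6.16% higher. The median was -1.05, or -1.07 with the measured value of H2-Ob in place of its bound. This count was 4 with an offset of 50 and 5 with median scaling. It was 3 without background correction and 3 with the authors' processed values, and H2-DMa, H2-DMb1 and H2-Ab1 were lower at 2-fold in both. The comparisons of tDC and of mDC with imDC share the imDC array, so their values are given side by side and no overlap is drawn between them.

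Set directly against tDC, mDC had lower levels of 9 of the 10 genes and the median difference was -0.64, against -0.02 over all genes. H2-DMa was 2.21-fold lower in mDC than in tDC (-1.15) and H2-Ab1 was 2.10-fold lower (-1.07), where 6.23% of 7831 genes passed 2-fold, 2.8% lower and 3.44% higher. None of the 10 was higher at 2-fold. H2-Eb1 (-0.90), H2-Aa (-0.70), H2-DMb1 (-0.65), Cd74 (-0.63) and Ciita (-0.55) were lower by less than 2-fold, H2-Oa differed by -0.12, and H2-Ob, not detected in mDC, was at least 1.17-fold lower. The difference of H2-Aa, H2-Ab1, H2-Eb1 and Cd74 between mDC and imDC thus lay mostly between mDC and tDC, whereas for H2-DMb1 the difference of -1.19 between tDC and imDC was larger than that of -0.65 between mDC and tDC.

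**Figure D3:**
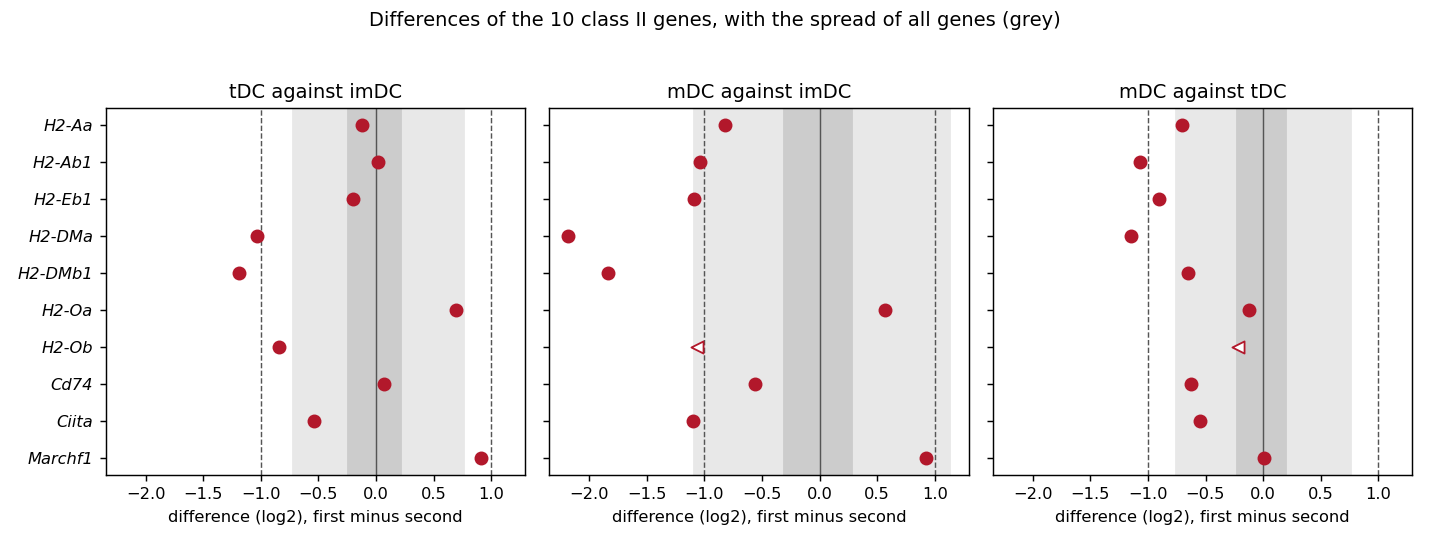
Log2 difference (horizontal axis, first-named minus second-named array) of the 10 genes in 3 comparisons; the pale band holds the 5th to 95th percentile and the dark band the quartiles of all genes, dashed lines mark 2-fold, and open triangles are bounds. H2-DMa and H2-DMb1 lie left of -1 in both comparisons with imDC, at -2.18 and -1.84 for mDC, while H2-Oa and Marchf1 lie at 0.57 and 0.92.

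Among other class II loci, H2-Ea, the alpha chain partner of H2-Eb1, which RefSeq annotates as a transcribed pseudogene in C57BL/6J, had levels of 8.49 in mDC, 9.33 in tDC and 9.30 in imDC. Its differences from imDC were -0.81 in mDC and 0.03 in tDC, a profile like those of H2-Aa and H2-Eb1. H2-Eb2 and H2-DMb2 were detected on no array.

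Of 7 genes for factors that hold Ciita on class II promoters, 5 were detected, and 0 of them passed 2-fold in any comparison. Of all genes, 4.9% passed it in tDC against imDC, 12.1% in mDC against imDC and 6.23% in mDC against tDC. A count of 0 of 5 is close to those shares. The RFX subunit Rfxap differed from imDC by -0.10 in mDC and -0.10 in tDC, and Creb1 by 0.12 in mDC and 0.33 in tDC. The NF-Y subunits Nfya, Nfyb and Nfyc differed from imDC by -0.23, 0.10 and 0.18 in mDC and by -0.31, 0.26 and 0.12 in tDC. Rfx5 and Rfxank were not detected. Of 8 measured genes linked to the control of Ciita, 3 passed 2-fold upward in mDC against imDC and 0 downward, where 6.16% of all genes were higher and 5.96% lower, namely the interferon-responsive activator Irf1 (2.24-fold), Irf8 (2.18-fold) and Socs1, an inhibitor of cytokine signalling (2.10-fold). None of the 8 passed 2-fold in tDC against imDC, where 4.9% of all genes did, and 0 of 8 is close to that share. In mDC against tDC, 1 of the 8 was higher, Socs1 by 2.36-fold, against 3.44% of all genes. The count of 3 was 2 without background correction, with median scaling, with an offset of 50 and with the authors' values, and the count of 1 in mDC against tDC was 0 without background correction and with the authors' values. Prdm1, a known repressor of Ciita in B lineage cells, was not detected on any array.

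Of 9 genes that process antigen or the invariant chain in endosomes, 2 were lower in mDC than in imDC and 0 were higher, against 5.96% and 6.16% of all genes. The asparagine endopeptidase Lgmn had levels of 11.13 in mDC, 12.47 in tDC and 13.29 in imDC and was 4.49-fold lower in mDC than in imDC. It was also 2.53-fold lower in mDC than in tDC. Cathepsin L (Ctsl) was 2.33-fold lower in mDC than in imDC. None of the 9 passed 2-fold in tDC against imDC, where 4.9% of all genes did. In that comparison 8 of 9 had a difference below 0 and the median was -0.26, and the median in mDC against imDC was -0.44. Ctsl was under 2-fold without background correction and with the authors' values, which left 1 gene of this list. Of 8 genes of class II turnover and surface partners, the tetraspanin Cd9, which associates with class II molecules, was 3.07-fold lower in mDC than in imDC, and 3.15-fold lower than in tDC, and the other 7 were under 2-fold. This 1 of 8 is close to the 12.1% of all genes past 2-fold in mDC against imDC. Cd83, named outside the rule because it is known to oppose Marchf1, differed from imDC by 0.26 in mDC and 0.29 in tDC.

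Most MHC class I presentation genes, the nearest pathway, differed from imDC in the other direction in mDC, with 12 above 0 and 2 below. Of 14 measured genes, 4 passed 2-fold upward in mDC against imDC, where 6.16% of all genes did, and 0 downward, with a median of 0.78 against -1.05 for the class II genes. Nlrc5, a relative of Ciita that acts on class I promoters, was 2.57-fold higher, and the class I heavy chain H2-K1 was 2.56-fold higher. The peptide editors Tapbp (tapasin) and Tapbpl were higher by 2.28-fold and 2.42-fold. In mDC against tDC, Nlrc5 was 3.73-fold, Tap1 2.24-fold and Psmb9 2.12-fold higher, 3 of 14 genes against 3.44% of all genes. Nlrc5 had levels of 10.78 in mDC, 8.88 in tDC and 9.42 in imDC, so it was lowest in tDC, while Ciita was lowest in mDC. In tDC against imDC, 0 of 13 class I genes passed 2-fold, where 4.9% of all genes did, and the median was -0.06.

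**Figure D4:**
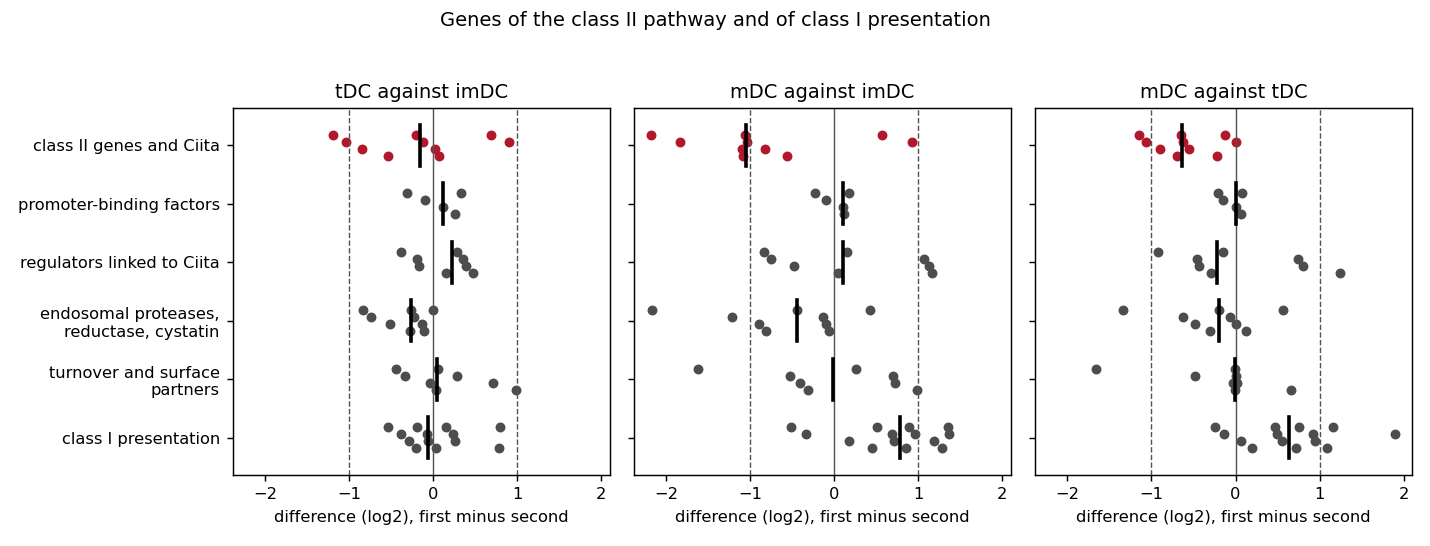
Log2 difference (horizontal axis, first-named minus second-named array) of each measured gene of the class II group (red) and of the other pathway lists (grey), with the median of each list as a black bar and 2-fold as dashed lines; H2-Ob and Erap1 stand at their bounds in the comparisons with mDC. In mDC against imDC the class II median is -1.05 and the class I median 0.78, and the promoter-binding factors stay within 0.23 of 0.

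Over the 7187 genes detected on all arrays, the genes nearest to Ciita in their 2 differences from imDC were Psat1, Top2a, Slc29a3, Zfp385a and Tspan14, at a distance of 0.003 to 0.057 on the log2 scale. The 5 around Ciita include Top2a, a DNA topoisomerase of dividing cells, and Psat1, an enzyme of serine synthesis. Those nearest to H2-DMa were Tcf7l2, Dpep2, Cox7a1, Cd93 and Evl, at 0.041 to 0.124. Tcf7l2 differed from imDC by -2.17 in mDC and -0.99 in tDC. Likeness over 3 arrays is a description of these values only.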

How the data were processed

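Total RNA from 3 cultures (550 ng each, per the labels) was amplified, labelled and hybridised to 1-colour bead arrays. The authors deposited average signals, a linear intensity, with a detection p-value for each probe and array, per the file headers, and processed values that are log2 intensities sharing 1 distribution with a median of 6.98. The submitters' processing notes list GenomeStudio 2011.1.

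Signals were background corrected here by normexp with parameters from the detection p-values, offset 16, and quantile normalized (neqc, limma 3.58.1, R 4.3.3). Named probes detected on at least 1 array at p under 0.01 were kept (10868 probes, 8055 genes), and the brightest stood for its gene. Of 25697 probes, 23978 had 1 gene symbol, 0 had several and 1719 are unnamed here. Symbols were updated through Entrez IDs against RefSeq (GRCm38.p6), which held 23962 of them. Differences are first minus second array. A gene detected on 1 array of a pair is a bound against the lowest detected level of the other. Probes of related H2 genes may cross-hybridise. The code for the calls was tested on simulated data only. Whether the calls would hold in a repeat culture was not tested. The number of arrays limits precision.

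The members, lists and patterns were chosen with earlier results of these data known. Named genes were all members, list genes past 2-fold (at most 4 per list and comparison) and the 5 nearest genes to Ciita and to H2-DMa. H2-Ea, the promoter-binding factors, Cd83, Fcrla and the class I genes of the closing section that were under 2-fold were named after their values were seen.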

Additional observations from a re-analysis of the deposited data

How the results depend on the processing

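Alternatives were no background correction, median scaling, an offset of 50, the authors' processed values, the mean of a gene's probes, detection at p under 0.05, detection on all 3 arrays and no detection filter. In mDC against imDC, the count of class II genes past 2-fold was 3 without background correction and 3 with the authors' values, against 6. It was 4 with an offset of 50, 5 with median scaling and 5 with detection on all 3 arrays. The median was -0.73 without background correction and with the authors' values, against -1.05. In tDC against imDC, the count was 1 with median scaling, against 2, and the median kept its sign in each alternative (-0.24 to -0.12). In mDC against tDC, 2 genes passed 2-fold in 7 alternatives and 3 with no detection filter. In mDC against imDC, H2-Ab1 ranged from 1.93-fold to 2.64-fold lower. H2-Ob ranged from a bound of at least 1.51-fold lower with the authors' values to 3.84-fold with no detection filter. The latter uses the mDC signal of H2-Ob, which was not detected. The sign of small differences varied for H2-Ab1 and Cd74 in tDC against imDC and for Marchf1 in mDC against tDC. The whole-array median moved by at most 0.06. Counts over all genes fell without background correction, to 79 lower and 148 higher in tDC against imDC, against 159 and 227, and to 132 lower in mDC against tDC, against 219. With the authors' values, 85 were lower in tDC against imDC and 136 in mDC against tDC. Lower genes in mDC against imDC numbered 340 without background correction and 349 with the authors' values, against 475. No paired analysis was possible because each group has 1 array. No result could be checked against a repeat culture, and signal close to background limits H2-Ob, H2-Aa and H2-Eb1.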

Other observations

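In the RefSeq gene table, Psmb9, Tap1, Psmb8 and Tap2, which serve class I presentation, lie next to each other between H2-DMb1 and H2-Ob. In mDC against tDC, Psmb9 differed by 1.09, Tap1 by 1.16, Psmb8 by 0.92 and Tap2 by 0.76, whereas H2-DMb1 differed by -0.65 and H2-Ob was at least 1.17-fold lower. In mDC against imDC the same 4 genes differed by 0.71, 0.96, 0.85 and 0.69, and H2-DMb1 by -1.84. In tDC against imDC they differed by -0.38, -0.20, -0.06 and -0.07. All 4 of these tDC values are within 0.46, the 95th percentile of the disagreement between probes of a gene, and give no direction. These genes were singled out after the values of the 3 arrays were seen.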
